A study of Mus musculus with 64 samples.

Results

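The genes described here encode the contractile apparatus of smooth muscle: *Acta2*, *Myh11*, *Cnn1*, *Tagln*, *Des*, *Actg2*, *Mylk* and *Smtn*. They were taken from the deposited gene tables by symbol, and all 8 were found among the 26385 genes listed. Their levels were followed over 27 RNA-Seq libraries of whole mouse testis, and over 20 libraries of sorted germ cells as a check of the sort for muscle-like cells. In the *Morc1* line, on the FVB/N background, a tyrosinase transgene sits in the *Morc1* locus and removes exons of the ATPase domain. Whole testis of this line was sampled at P10.5 from 3 *Morc1* tg/tg, 2 *Morc1* tg/+ and 1 *Morc1* +/+ mice, with 1 preliminary *Morc1* tg/+ and 1 preliminary *Morc1* +/+ library, and at P14.5 from 3 mice of either genotype, tg/tg and tg/+. At P10.5 the *Dnmt3l* line gave 3 *Dnmt3l* -/-, 3 *Dnmt3l* +/- and 3 *Dnmt3l* +/+ libraries, and the *Miwi2* line gave 2 libraries labelled *Miwi2* -/- and 2 labelled *Miwi2* +/-. The strains of these 2 lines are not given in the sources used here. The germ cells were sorted from both *Morc1* genotypes, tg/tg and tg/+, before birth at E16.5 and E18.5 and after it at P2.5 and P10.5. Up to P2.5 they carried an Oct4-IRES-eGfp reporter on a mixed background and were sorted on it, and at P10.5 they were sorted on low side scatter, high EPCAM and absence of MHC class I. Each library came from 1 mouse, and none of the groups received a treatment.

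Seminiferous tubules are wrapped in peritubular myoid cells, which lie on the basement membrane together with extracellular matrix, contract to move the tubule fluid and secrete factors that act on Sertoli and germ cells. Myoid cells resemble smooth muscle: actin and smooth muscle myosin form the contractile filaments, calcium and calmodulin activate the myosin light chain kinase that starts contraction, and actin-binding proteins such as calponin and transgelin modify it. The same genes are used by the muscle around testicular blood vessels and by pericytes, so a whole testis library does not separate these sources. Many of them are switched on through serum response factor, which binds the CArG box together with coactivators of the myocardin family.

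The *Acta2* promoter is shown because this gene has the highest level of the 8 and because its proximal CArG boxes are the textbook example of this control. The RefSeq table (GRCm38.p6) held promoters of 5 of the 8 genes (*Acta2*, *Cnn1*, *Des*, *Mylk* and *Smtn*), each spanning 250 bases before and 50 after the start. The *Acta2* window lies at chr19:34255324-34255623 on the minus strand. Capitals mark the CArG boxes found on either strand when 1 G or C was allowed in the A/T core, and they begin at positions -84 and -34 from the start:
*Acta2* promoter: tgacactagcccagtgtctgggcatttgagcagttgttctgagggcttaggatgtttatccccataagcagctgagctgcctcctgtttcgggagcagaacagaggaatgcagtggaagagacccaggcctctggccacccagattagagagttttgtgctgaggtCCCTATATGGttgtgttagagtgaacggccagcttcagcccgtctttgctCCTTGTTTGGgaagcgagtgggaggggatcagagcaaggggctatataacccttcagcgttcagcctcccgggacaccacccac

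Of the 5 promoters, 1 (*Acta2*) held a CArG box under this rule, and 3280 of 32851 promoters in the table (9.98%) did. With no G or C in the core, 535 of 32851 promoters (1.63%) and none of the 5 held one. The matches are a description of these windows and were not tied to any level below. Positions count from the annotated start, which in the *Acta2* window lies before the bases tatataa. The start in use in testis was not tested.

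Whole testis libraries held 22509570 to 42137954 reads counted on genes (n = 27), and sorted libraries 2413679 to 14918478 (n = 20). *Morc1* itself was lower in *Morc1* tg/tg than in control whole testis at P10.5 (log2 fold change -1.74) and P14.5 (-1.43), and *Dnmt3l* was lower in *Dnmt3l* -/- (-3.93). *Piwil4*, the gene of *Miwi2*, was higher in the libraries labelled *Miwi2* -/- than in those labelled *Miwi2* +/- (log2 fold change 0.69, edgeR adjusted p = 0.000746). This count covers the whole gene and does not by itself decide whether the labels are right. The paper reports that certain LINE elements and IAP-Ey were derepressed in *Miwi2* -/- testis. Directions in that line are those of the labels alone. Testis markers were present in all whole testis groups: the summed level of 8 Sertoli markers was at least 2123 RPKM and that of 9 germ cell markers at least 161.8 RPKM. RPKM is the number of reads per length of exon and per number of mapped reads, as the authors deposited it.

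In whole testis the 8 genes differed in level by more than an order of magnitude, and *Acta2*, the alpha actin of smooth muscle and myoid cells, was far above the others. Its mean was 263.2 RPKM over the 27 libraries, with a range of 128.6 to 361 RPKM, and it made up 58.7 to 65.0% of the summed level of the 8 genes. *Tagln*, the actin-binding protein transgelin, followed with a mean of 53.95 RPKM (range 22.43 to 95.98). The level of *Acta2* exceeded that of *Tagln* in every library, as the ranges show.

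*Mylk*, the myosin light chain kinase, had a mean of 39.32 RPKM and the narrowest relative range of the 8 genes, 30.71 to 46.85 RPKM (1.53-fold). *Myh11*, the smooth muscle myosin heavy chain, had a mean of 35.51 RPKM (16.69 to 45.39). The ranges of *Tagln*, *Mylk* and *Myh11* overlapped, so their order was not the same in every library. *Smtn*, the cytoskeletal protein smoothelin, had a mean of 10.25 RPKM (6.13 to 12.69). *Actg2*, the gamma actin of enteric smooth muscle, had a mean of 7.206 RPKM and the widest relative range, 3.231 to 14.93 RPKM (4.62-fold). *Cnn1*, the calponin that binds actin and inhibits the myosin ATPase, averaged 6.614 RPKM (2.807 to 12.08), and *Des*, the intermediate filament protein desmin, 6.544 RPKM (4.379 to 10.59). The means of *Actg2*, *Cnn1* and *Des* lay within their spread over libraries and were not ordered by these data.

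**Figure D1:**
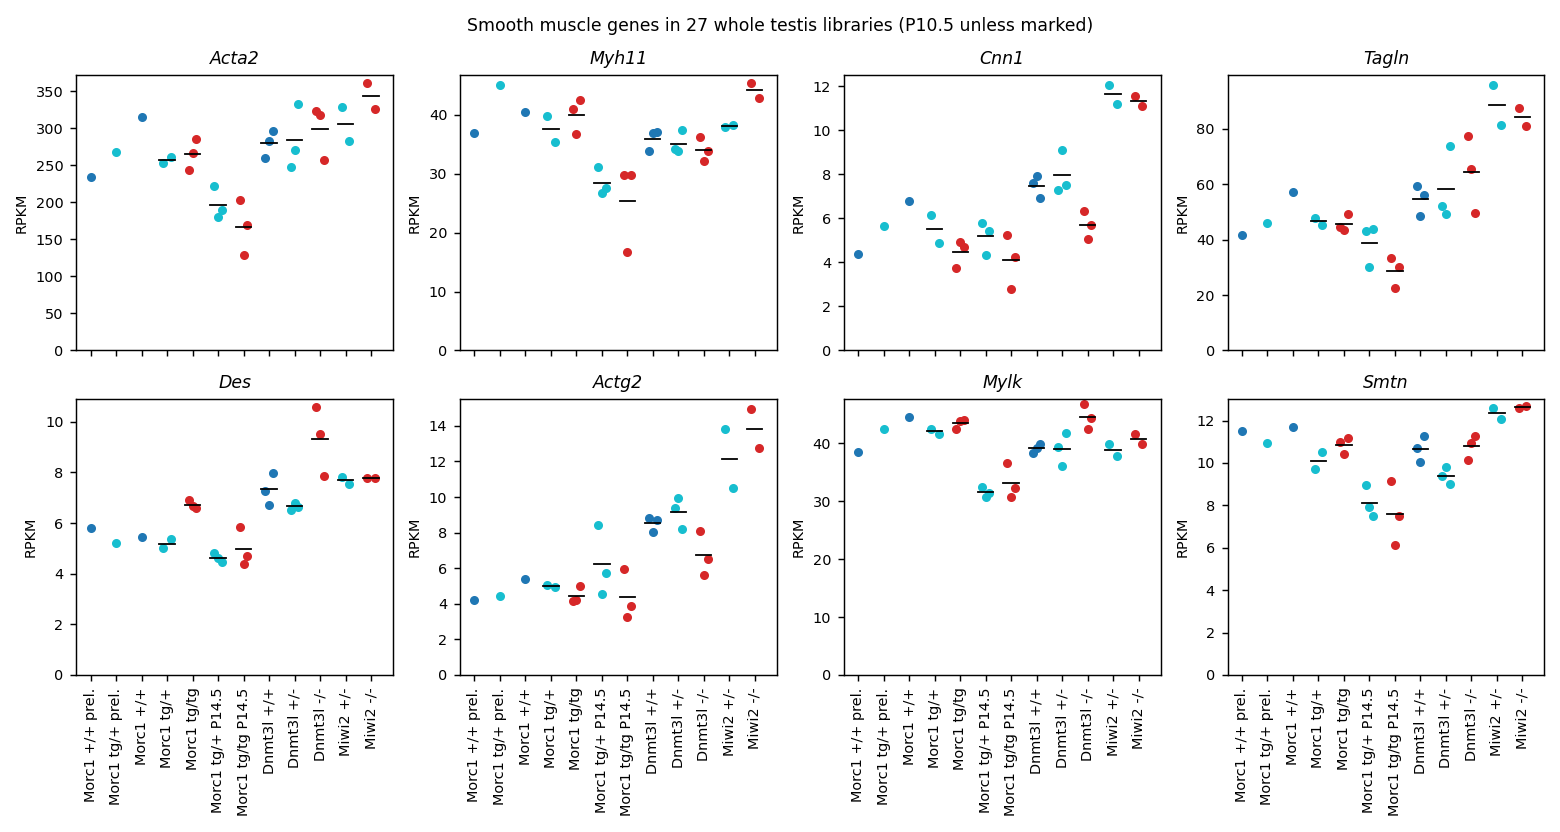
Level (RPKM, linear axis from 0) of each of the 8 genes in the 27 whole testis libraries, by group. Each point is 1 library, blue for +/+, cyan for heterozygous and red for homozygous mutant labels, and the line is the mean of groups with more than 1 library. *Acta2* reached 361 RPKM and fell to 128.6 RPKM in a *Morc1* tg/tg library at P14.5, and *Cnn1*, *Tagln* and *Actg2* were highest in the *Miwi2* line.

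In the mm9 annotation of the files, *Acta2* lies at chr19:34315580-34329826 on the minus strand, *Myh11* at chr16:14194620-14291501 (minus), *Cnn1* at chr9:21903725-21914074 (plus) and *Tagln* at chr9:45737711-45744141 (minus). *Des* lies at chr1:75356904-75365154 (plus), *Actg2* at chr6:83462899-83486259 (minus), *Mylk* at chr16:34745296-35002520 (plus) and *Smtn* at chr11:3417526-3440615 (minus). In the GENCODE annotation of mm9 the merged exons span 1562 bases for *Actg2* to 10630 bases for *Mylk*. The exon lengths behind the deposited RPKM are not given. The ratios of count to RPKM show that they differ from these for some genes, *Mylk* among them. In the GENCODE annotation, exons of 3 of the 8 overlap genes on the opposite strand. The largest overlap covers 16.3% of the exon bases of *Smtn* (which overlaps *Gm11946* and *Gm11947*), 5.86% of *Des* (*Gm15179*) and 4.1% of *Tagln* (*Pcsk7*). The whole testis kit does not mark strand, so reads from a gene and its partner on the other strand cannot be told apart there. The 6 mouse actins are similar in their coding parts. Among windows of 50 bases, the read length, 2.08% of those of *Acta2* and 5.3% of those of *Actg2* matched another actin with up to 2 mismatches. Matches to pseudogenes and other loci, which also decide whether a read is unique, were not counted.

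The 3 lines differed in these genes already in their controls at P10.5. *Actg2*, *Cnn1* and *Tagln* had the largest ratios of the libraries labelled *Miwi2* +/- to either other line, and *Actg2*, *Des* and *Cnn1* the largest of the *Dnmt3l* to the *Morc1* controls. Line, strain and library batch cannot be told apart, so the values are given as descriptions without a test. In the *Miwi2* line the libraries labelled +/- stand for the controls, with the reservation on these labels given above. In bulk tissue, fewer cells of a type, less RNA per cell and more RNA from other cells cannot be told apart either. This holds here and in all comparisons of whole testis, since levels are relative to the reads of a library. *Cnn1* was at 6.808, 6.162 and 4.876 RPKM in the 3 *Morc1* controls, between 6.951 and 9.119 RPKM in the 6 *Dnmt3l* controls, and at 12.08 and 11.22 RPKM in the 2 libraries labelled *Miwi2* +/-. The 3 sets did not overlap. In the libraries labelled *Miwi2* -/- the means were 11.34 ± 0.329 RPKM for *Cnn1*, 13.86 ± 1.52 RPKM for *Actg2* and 84.28 ± 4.76 RPKM for *Tagln* (SD, n = 2), also above the controls of the other two lines. *Actg2* was at 5.372, 5.045 and 4.969 RPKM in the *Morc1* controls, between 8.027 and 9.949 in the *Dnmt3l* controls, and at a mean of 12.15 ± 2.34 RPKM (SD, n = 2) in the libraries labelled *Miwi2* +/-, again without overlap. *Tagln* was at 57.26, 47.97 and 45.44 RPKM in the *Morc1* controls, between 48.64 and 73.81 in the *Dnmt3l* controls, and at 95.98 and 81.41 in the libraries labelled *Miwi2* +/-. Only the libraries labelled *Miwi2* +/- stood apart for *Tagln*, 1.77-fold above the *Morc1* controls and 1.57-fold above the *Dnmt3l* controls.

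Set against the *Morc1* controls, the libraries labelled *Miwi2* +/- did not overlap in 6 of the 8 genes. Of these, 5 were higher, namely *Actg2* (2.37-fold), *Cnn1* (1.96-fold), *Tagln* (1.77-fold), *Des* (1.46-fold) and *Smtn* (1.16-fold), and *Mylk* was lower (ratio 0.906). Among 12557 genes with a mean of at least 1 RPKM, 73.6% did not overlap between the same sets, with 34.1% higher and 39.6% lower in the libraries labelled *Miwi2* +/-, so non-overlap itself was common. In the *Dnmt3l* controls 3 of the 8 genes lay above the *Morc1* controls, *Actg2* (1.73-fold), *Des* (1.33-fold) and *Cnn1* (1.30-fold), beside 33.9% of all genes that did not overlap and 19.5% that were higher. The libraries labelled *Miwi2* +/- lay above the *Dnmt3l* controls in *Tagln*, *Cnn1* (1.51-fold), *Actg2* (1.37-fold), *Smtn* (1.23-fold) and *Myh11* (1.07-fold), beside 59.1% of all genes without overlap and 24.7% higher. *Acta2* overlapped in each of these comparisons. Marker sums moved with the lines. The 9 genes of epididymis and efferent duct summed to 7.38 to 7.70 RPKM in the *Morc1* controls, 19.0 to 55.8 in the *Dnmt3l* controls and 19.9 to 20.9 in the libraries labelled *Miwi2* +/-. *Crisp1* was at 0 in all 3 *Morc1* controls and ranged from 1 to 1849 reads over the 6 *Dnmt3l* controls. The 8 fat genes summed to 9.08 to 12.7, 26.8 to 42.5 and 39.7 to 40.3 RPKM in the same order of lines. The fat sum was carried by different genes: *Lpl*, lipoprotein lipase, was at 3.09 to 3.97, 20.5 to 35.6 and 9.67 to 13.3 RPKM, *Fabp4* at 0.584 to 0.915, 0.481 to 1.76 and 17.2 to 20.2 RPKM, and *Plin1* overlapped in all 3 lines. The 7 pericyte genes had a lower sum in the libraries labelled *Miwi2* +/- (85.3 to 94.5, 74.6 to 90.6 and 60.2 to 63.3 RPKM), most of which was *Mcam* (62.3 to 67.9, 52.9 to 64.5 and 38.1 to 39.6 RPKM), a gene that the sorted germ cells held as well, and without it the sums overlapped (22.6 to 26.6, 20.4 to 26.1 and 22.1 to 23.7 RPKM). Endothelial genes were lower there (39.2 to 45.7, 37.5 to 49.4 and 28.5 to 31.3 RPKM) and Leydig genes higher (308 to 332, 238 to 374 and 410 to 450 RPKM). Sertoli markers were lower in the libraries labelled *Miwi2* +/- (3595 to 3863, 2868 to 3952 and 2123 to 2310 RPKM), germ cell markers were lower in the *Morc1* controls (355 to 361, 456 to 581 and 510 to 517 RPKM), and macrophage markers were higher in the libraries labelled *Miwi2* +/- (30.3 to 33.7, 29.8 to 43.1 and 56.0 to 59.0 RPKM). Their part in the differences was not tested.

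Loss of *Morc1* left most of these genes near the control level at P10.5, and *Des* alone among the 8 passed the test. *Des* was at 5.456 RPKM in *Morc1* +/+ and at 5 and 5.378 RPKM in *Morc1* tg/+, against 6.916, 6.673 and 6.6 RPKM in the 3 *Morc1* tg/tg libraries. All mutant libraries were above all controls. The rise was 1.29-fold (log2 fold change 0.36, SE 0.0685, edgeR adjusted p = 0.00557), and *Des* passed in all 14 alternative fits, with adjusted p between 0.00149 and 0.0286. Over all genes tested in this comparison, 15.3% of 15165 were called, 6.08% higher and 9.26% lower, so 1 of 8 was not above the background.

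*Cnn1* had the next largest difference, with 6.808 RPKM in *Morc1* +/+, 6.162 and 4.876 in *Morc1* tg/+ and 3.73, 4.922 and 4.722 in *Morc1* tg/tg. The groups overlapped by 1 control library, and the difference (log2 fold change -0.40, SE 0.136, edgeR adjusted p = 0.07) did not pass. It passed in 3 of 14 alternative fits, where adjusted p ranged from 0.0278 to 0.205. For the contractile filaments the values stayed close: *Acta2* was at 315.4, 253.4 and 261.1 RPKM in controls and 243.6, 266.4 and 286 in *Morc1* tg/tg, and *Myh11* at 40.52, 39.73 and 35.34 against 40.92, 36.65 and 42.44 RPKM. Log2 fold changes of the 6 genes other than *Des* and *Cnn1* lay between -0.18 (*Actg2*) and 0.07 (*Myh11*). The *Morc1* +/+ library was the highest of the 3 controls in 8 of 8 genes. With the *Morc1* tg/+ controls alone, the log2 fold change of *Acta2* turned from -0.04 to 0.058, both uncalled. The median over the 8 genes was -0.00542, beside 0.00831 over all genes tested.

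At P14.5 none of the 8 genes passed the test between *Morc1* tg/tg and *Morc1* tg/+, although 34.8% of 15283 genes did. The smallest p was that of *Tagln*, at 43.05, 30.07 and 43.8 RPKM in *Morc1* tg/+ and 33.44, 22.43 and 30.06 RPKM in *Morc1* tg/tg (log2 fold change -0.44, SE 0.171, edgeR adjusted p = 0.0782). The 2 sets overlapped, and *Tagln* was the single gene of the 8 with an unadjusted p under 0.05. DESeq2 called it (1 of 8) and limma called none. Without *Morc1* tg/+ replicate 2 it passed, with a log2 fold change of -0.60 and an edgeR adjusted p of 0.0111. With the replicate number as a block, *Acta2*, *Tagln* and *Actg2* were called lower (3 of 8, beside 33.0% of all genes called).

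*Actg2* was at 8.417, 4.54 and 5.753 RPKM in *Morc1* tg/+ and 5.973, 3.231 and 3.871 RPKM in *Morc1* tg/tg (log2 fold change -0.51, SE 0.268, edgeR adjusted p = 0.176), with overlap. *Acta2* was at 221.5, 180.3 and 189.3 against 203.4, 128.6 and 169.5 RPKM (log2 fold change -0.23, SE 0.142). Replicate 1 held the highest value of its group in 7 of 8 genes in both genotypes, and *Morc1* tg/+ replicate 2 the lowest in 6 of 8. *Morc1* tg/tg replicate 2 held the lowest value of its group in 8 of 8 genes. Without it, the log2 fold change of *Myh11* moved from -0.16 to 0.064 and that of *Smtn* from -0.09 to 0.036, all uncalled. The median over the 8 genes was -0.195, beside 0.0109 over all genes. The *Morc1* effect was also compared directly between the ages: none of the 8 interaction terms passed (range -0.33 to 0.06, smallest adjusted p = 0.228 in edgeR, none with an unadjusted p under 0.05, 8.22% of all genes called). DESeq2 and limma likewise called none. With *Morc1* tg/tg replicate 1 of P14.5 left out, the term of *Des* passed (-0.38, edgeR adjusted p = 0.0364).

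In *Dnmt3l* -/- testis, 4 of the 8 genes passed the test, and they did not move together: *Des* and *Mylk* rose and *Cnn1* and *Actg2* fell. Over all genes, 53.9% of 15665 were called in this comparison, 24.9% higher and 29% lower, so the share of the 8 genes was near the background. *Des* was between 6.531 and 7.993 RPKM in the 6 controls, with a median of 6.771, and at 10.59, 9.533 and 7.842 RPKM in *Dnmt3l* -/-. The mutant values were higher except that 1 of them lay below the highest control. The rise was 1.38-fold (log2 fold change 0.46, SE 0.0984, edgeR adjusted p = 0.00184). *Mylk* was between 36.02 and 41.72 RPKM in controls (median 39.26) and at 46.85, 42.5 and 44.33 RPKM in *Dnmt3l* -/-, without overlap (1.18-fold, log2 fold change 0.24, SE 0.0626, edgeR adjusted p = 0.00701).

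*Cnn1* was between 6.951 and 9.119 RPKM in the *Dnmt3l* controls (median 7.563) and at 6.317, 5.06 and 5.711 RPKM in *Dnmt3l* -/-, also without overlap. It fell 1.31-fold (log2 fold change -0.39, SE 0.1, edgeR adjusted p = 0.00543). *Actg2* was between 8.027 and 9.949 RPKM in controls (median 8.78) and at 8.119, 5.633 and 6.541 RPKM in *Dnmt3l* -/-, with 1 mutant library inside the control range. It fell 1.27-fold (log2 fold change -0.34, SE 0.12, edgeR adjusted p = 0.0302). *Des* and *Cnn1* passed in all 17 alternative fits, *Mylk* in 16 of 17 and *Actg2* in 10 of 17. *Actg2* lost its call without *Dnmt3l* -/- replicate 2 (adjusted p = 0.166), without replicate 3 (0.0854), and with either control genotype alone (0.157 with *Dnmt3l* +/+ and 0.0782 with *Dnmt3l* +/-), all by edgeR, and also without *Dnmt3l* +/- replicate 1 (0.052) or 2 (0.058) and with all whole testis libraries in 1 fit (0.129). *Mylk* lost it with the *Dnmt3l* +/- controls alone (edgeR adjusted p = 0.0615).

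The main filament genes did not pass. *Acta2* was between 247.5 and 333.2 RPKM in controls and at 323.3, 318.3 and 257.1 RPKM in *Dnmt3l* -/- (log2 fold change 0.14, SE 0.103). *Myh11* was between 33.78 and 37.45 RPKM in controls and at 36.16, 32.23 and 33.85 RPKM in the mutants (log2 fold change -0.01, SE 0.0637). *Tagln*, at 48.64 to 73.81 against 77.55, 65.52 and 49.75 RPKM, did not pass either (log2 fold change 0.23, SE 0.152, edgeR adjusted p = 0.221), but did so without *Dnmt3l* -/- replicate 3 (log2 fold change 0.39, adjusted p = 0.0389) or *Dnmt3l* +/- replicate 3 (0.36, adjusted p = 0.0306). *Smtn* had a log2 fold change of 0.15 (edgeR adjusted p = 0.104) and passed in 3 of 17 alternative fits: without *Dnmt3l* +/+ replicate 3 (0.18, adjusted p = 0.044), with the *Dnmt3l* +/- controls alone (0.25, adjusted p = 0.0301) and with all whole testis libraries in 1 fit (0.20, adjusted p = 0.0411). *Dnmt3l* -/- replicate 1 held the highest mutant value in 7 of the 8 genes.

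The fitted effects of the 2 lines were compared as an interaction. The interaction passed for none of the 8 genes, while 17.6% of all genes were called, and limma and DESeq2 called none. *Mylk* was nearest and the single gene with an unadjusted p under 0.05, with a *Morc1* effect 0.25 lower than the *Dnmt3l* effect on the log2 scale (SE 0.0862, edgeR adjusted p = 0.0533). It passed without *Dnmt3l* -/- replicate 3 (adjusted p = 0.0405) or *Dnmt3l* +/- replicate 3 (adjusted p = 0.0221). Over all genes, each of these libraries differed most from the others of its group. Its chi-square per gene to them was 30.5 and 31.9 in *Dnmt3l* -/- (11.1 between the others) and 29.6 and 28.6 in *Dnmt3l* +/- (17.5 between the others). Without *Dnmt3l* -/- replicate 3 *Tagln* passed as well (-0.57, edgeR adjusted p = 0.0457). So the rise of *Des* in both lines and the rise of *Mylk* in *Dnmt3l* -/- were not shown to differ between lines.

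**Figure D2:**
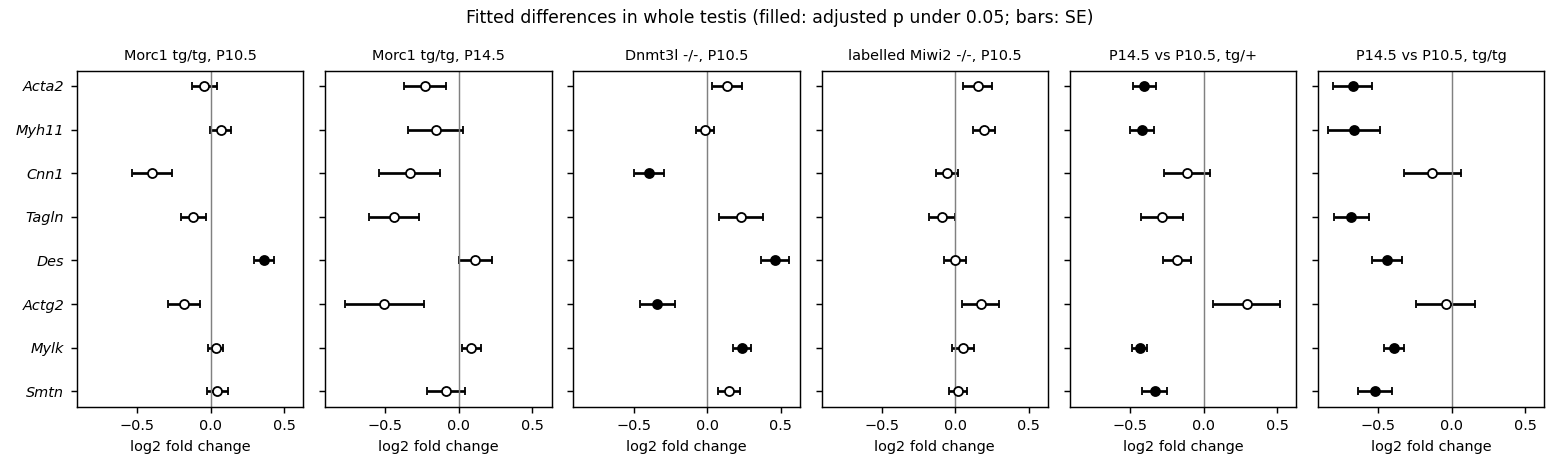
Log2 fold change of the 8 genes from the edgeR fits in 6 comparisons of whole testis, mutant over control or P14.5 over P10.5. Points are estimates, bars are standard errors, and filled points passed an adjusted p of 0.05. *Des* was to the right of 0 in *Morc1* tg/tg at P10.5 (0.36) and in *Dnmt3l* -/- (0.46) and at -0.0023 in the libraries labelled *Miwi2* -/-, and 4 and 6 of the 8 genes were filled to the left of 0 in the age comparisons.

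In the *Miwi2* line, 0 of 8 genes passed between the libraries labelled *Miwi2* -/- and *Miwi2* +/- (edgeR, 1.23% of 15997 genes called), and DESeq2 and limma also called 0. With the replicate number as a block, 3 of 8 were called, beside 28.1% of all genes. *Myh11* was the single gene with an unadjusted p under 0.05, at 37.89 and 38.21 RPKM against 45.39 and 42.89 RPKM in the libraries labelled *Miwi2* -/- (log2 fold change 0.20, SE 0.0729, edgeR adjusted p = 0.171). *Acta2* was at 328.2 and 282.3 against 361 and 325.8 RPKM, with overlap. The log2 fold changes of the 8 genes lay between -0.09 (*Tagln*) and 0.20. Heterozygous and wild-type controls were compared too. Between *Dnmt3l* +/- and *Dnmt3l* +/+ 0 of 8 genes passed in edgeR, DESeq2 and limma (range of log2 fold change -0.18 to 0.11, 1 with an unadjusted p under 0.05, 0.00651% of all genes called), and between *Morc1* tg/+ and *Morc1* +/+ again 0 of 8 in each tool (range -0.13 to 0.08, 0 with an unadjusted p under 0.05, 0.0131% of all genes called). The latter comparison rests on few libraries: with 1 left out the log2 fold change ranged from -0.30 (without the preliminary *Morc1* +/+ library) to 0.41 (without *Morc1* +/+ replicate 1) for *Cnn1*. Without the preliminary *Morc1* tg/+ library it was -0.29 for *Acta2* and -0.11 for *Myh11*, and without *Morc1* +/+ replicate 1 it was 0.23 and 0.33, all uncalled.

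The genes among the 8 that were called with age were all lower at P14.5. The 2 ages came from different mice and the labels name no batch that they share. Age and library batch therefore cannot be told apart in these comparisons. From P10.5 to P14.5 in *Morc1* tg/+ testis, 4 of the 8 genes fell and none rose, beside 51.4% of 15538 genes called, 25.4% higher and 26% lower. *Mylk* was at 42.46 and 41.68 RPKM at P10.5 and at 32.37, 30.73 and 31.49 RPKM at P14.5 (1.35-fold lower, log2 fold change -0.43, SE 0.0526, edgeR adjusted p = 0.000197). *Myh11* was at 39.73 and 35.34 and then at 31.12, 26.68 and 27.57 RPKM (1.34-fold lower, log2 fold change -0.42, SE 0.0793, edgeR adjusted p = 0.00213). Neither gene overlapped between the ages. *Acta2* was at 253.4 and 261.1 and then at 221.5, 180.3 and 189.3 RPKM (1.32-fold lower, log2 fold change -0.40, SE 0.0791, edgeR adjusted p = 0.0026). *Smtn* had a mean of 10.11 ± 0.543 RPKM (SD, n = 2) at P10.5 and was then at 8.957, 7.903 and 7.512 RPKM (log2 fold change -0.33, SE 0.0856, edgeR adjusted p = 0.0101). It lost the call without the P10.5 *Morc1* tg/+ replicate 3, in a fit that leaves 1 library in that group.

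The other 4 genes did not pass in *Morc1* tg/+ testis. *Actg2* differed in sign, at 5.045 and 4.969 RPKM at P10.5 and 8.417, 4.54 and 5.753 RPKM at P14.5 (log2 fold change 0.29, SE 0.228, edgeR adjusted p = 0.308), and without the P14.5 *Morc1* tg/+ replicate 2 it passed as higher (log2 fold change 0.49, adjusted p = 0.036). *Tagln*, *Des* and *Cnn1* had log2 fold changes of -0.28, -0.18 and -0.11. The median over the 8 genes was -0.307, beside -0.00652 over all genes tested.

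In *Morc1* tg/tg testis, 6 of the 8 genes fell with age and none rose, beside 41% of 15163 genes called, 19.8% higher and 21.1% lower. *Tagln* was at 44.5, 43.45 and 49.45 RPKM at P10.5 and at 33.44, 22.43 and 30.06 RPKM at P14.5 (1.61-fold lower, log2 fold change -0.68, SE 0.12, edgeR adjusted p = 0.00144). *Acta2* was at 243.6, 266.4 and 286 and then at 203.4, 128.6 and 169.5 RPKM (1.60-fold lower, log2 fold change -0.67, SE 0.134, edgeR adjusted p = 0.00294). Both genes were lower in every P14.5 library than in any P10.5 library. *Myh11* was at 40.92, 36.65 and 42.44 and then at 29.73, 16.69 and 29.75 RPKM (log2 fold change -0.66, SE 0.177, edgeR adjusted p = 0.0132), which became 0.0508 without the P10.5 *Morc1* tg/tg replicate 3. *Smtn* fell by 0.52 (SE 0.116, edgeR adjusted p = 0.00536), *Des* by 0.44 (SE 0.104, adjusted p = 0.00733) and *Mylk* by 0.39 on the log2 scale (SE 0.0683, adjusted p = 0.00141). *Cnn1* and *Actg2* had log2 fold changes of -0.13 and -0.04 and did not pass. The median over the 8 genes was -0.481, beside 0.00734 over all genes. The 2 age comparisons use the same libraries as the genotype comparisons of the *Morc1* line, so they are not separate evidence about those libraries.

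Other genes of the contractile pathway were counted by list. Among 24 partners of the contractile filaments and the cytoskeleton, 18 fell from P10.5 to P14.5 in *Morc1* tg/+ testis. *Sgca*, alpha-sarcoglycan, was called higher there and lower in *Morc1* tg/tg at P14.5, but it passed the filter on low counts only through the P14.5 *Morc1* tg/+ libraries, where it had 16 to 28 reads against 1 to 10 in the other groups of this line, and no weight is given to these calls. The largest falls were in *Pdlim3*, a PDZ and LIM domain protein that binds alpha-actinin (log2 fold change -1.13), and *Svil*, the actin-binding supervillin (-0.98). In *Morc1* tg/tg testis 19 of 23 partners tested fell, led by *Pdlim3* (-1.14), *Cald1*, caldesmon (-0.89), and *Flna*, filamin A (-0.88). None of 23 passed between *Morc1* tg/tg and controls at P10.5, where 15.3% of all genes were called. At P14.5, where 34.8% of all genes were called, 6 were higher, among them *Synm*, synemin (0.59). Besides *Sgca*, 1 was lower there, *Myh10*, a non-muscle myosin heavy chain (-0.66). In *Dnmt3l* -/- testis 11 of 23 were higher and none lower, with *Synm* (0.77), *Cnn3*, the acidic calponin (0.51), and *Pdlim3* (0.49) in front. Over all genes, 26% and 21.1% were lower with age in the 2 genotypes and 24.9% were higher in *Dnmt3l* -/-. The median log2 fold changes of the partners were -0.478, -0.532 and 0.224 in these 3 comparisons, beside -0.00652, 0.00734 and -0.000919 over all genes.

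Of 18 tested genes that control contraction, 8 fell with age in *Morc1* tg/+ testis and none rose, and the largest changes were in the endothelin receptors *Ednra* (-1.25) and *Ednrb* (-0.98) and in *Pde5a*, the phosphodiesterase that degrades cyclic GMP (-0.96). In *Morc1* tg/tg testis 8 fell and 2 rose, again with *Ednrb* (-1.42), *Ednra* (-1.30) and *Pde5a* (-1.15) changing most. Between *Morc1* tg/tg and controls at P10.5, where 15.3% of all genes were called, 3 were higher and 2 lower. Among them *Avpr1a*, a vasopressin receptor (0.58), and *Oxtr*, the oxytocin receptor (0.34), were higher, and *Cacna1c*, the pore subunit of an L-type calcium channel (-0.29), was lower. At P14.5 *Rock1*, a protein kinase, was the single call (-0.18), beside 34.8% of all genes called. In *Dnmt3l* -/- testis 8 were higher and 3 lower, including *Gucy1a3*, a subunit of the nitric oxide receptor (0.50), *Ednra* (0.46) and *Rock1* (-0.54). Without regard to direction, 8 and 10 of 18 were called with age, beside 51.4% and 41% of all genes, and 11 of 18 in *Dnmt3l* -/-, beside 53.9%. By direction, 8 were lower with age in either genotype, beside 26% and 21.1% of all genes. In *Dnmt3l* -/- 8 were higher, beside 24.9%. Its medians were -0.067, -0.208 and 0.159.

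Of 14 tested regulators of smooth muscle genes, 6 fell and 1 rose with age in *Morc1* tg/+ testis, and 5 fell and 2 rose in *Morc1* tg/tg testis. *Myocd*, the serum response factor coactivator myocardin, fell by 1.03 and 1.17 on the log2 scale, and *Notch3*, a Notch receptor of mural cells, by 0.81 and 0.95. At P10.5 *Tgfbr1*, a receptor of TGF-beta, was the single regulator called in *Morc1* tg/tg testis (-0.37), and in *Dnmt3l* -/- testis 4 were higher and 3 lower, among them *Meis1*, a homeobox factor (0.47), *Mkl1*, a myocardin-related coactivator (-0.42), and *Tgfbr1* (-0.40). At P14.5 4 were higher and 1 lower in *Morc1* tg/tg, including *Tgfbr1* (-0.64) and *Meis1* (0.51). Over all genes, 15.3% were called in *Morc1* tg/tg at P10.5 and 34.8% at P14.5. With 7 of 14 called in either age comparison and in *Dnmt3l* -/-, the regulators were near the share of all genes without regard to direction (51.4%, 41% and 53.9%). Their medians were -0.255, -0.137 and 0.0292.

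Genes of peritubular and stromal identity were counted in the same way. Of the 20, 8 rose and none fell in *Morc1* tg/tg at P10.5, with *Cxcl12*, a chemokine (log2 fold change 0.46), *Thy1*, a surface glycoprotein of fibroblast-like cells (0.45), and *Pdgfra*, a platelet-derived growth factor receptor (0.38), in front. In *Dnmt3l* -/- 16 rose and none fell, led by *Gdnf*, the growth factor of spermatogonial stem cells (1.02), *Pdgfra* (0.75) and *Dcn*, the matrix proteoglycan decorin (0.73). At P14.5 4 rose in *Morc1* tg/tg, beside 34.8% of all genes called in either direction. The 4 included *Gdnf* (0.77), *Ptch1*, the hedgehog receptor (0.37), and *Gli1*, a hedgehog target (0.26). With age, 19 of 20 fell in either genotype, with *Gdnf* (-1.35), *Ptch1* (-0.97) and *Gli1* (-0.93) changing most in *Morc1* tg/+, and *Itga8*, an integrin (-1.38), *Lama2*, a laminin chain (-0.97), and *Lum*, lumican (-0.95), in *Morc1* tg/tg. *Gdnf* is also made by Sertoli cells. Over all genes 6.08% were higher in *Morc1* tg/tg at P10.5 and 24.9% in *Dnmt3l* -/-, and 26% and 21.1% were lower with age. The median log2 fold change of the 20 genes was 0.196, 0.433, -0.605 and -0.764 in these 4 comparisons, and 0.185 at P14.5. The summed level of these 20 genes was 892 to 1028 RPKM in the P10.5 *Morc1* controls and 1051 to 1114 in *Morc1* tg/tg, 761 to 998 in the *Dnmt3l* controls and 1051 to 1273 in *Dnmt3l* -/-, and at P14.5 563 to 631 in *Morc1* tg/+ and 534 to 738 in *Morc1* tg/tg. The sums overlapped between genotypes at P14.5 and not between the mutants and controls of these 2 lines at P10.5.

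**Figure D3:**
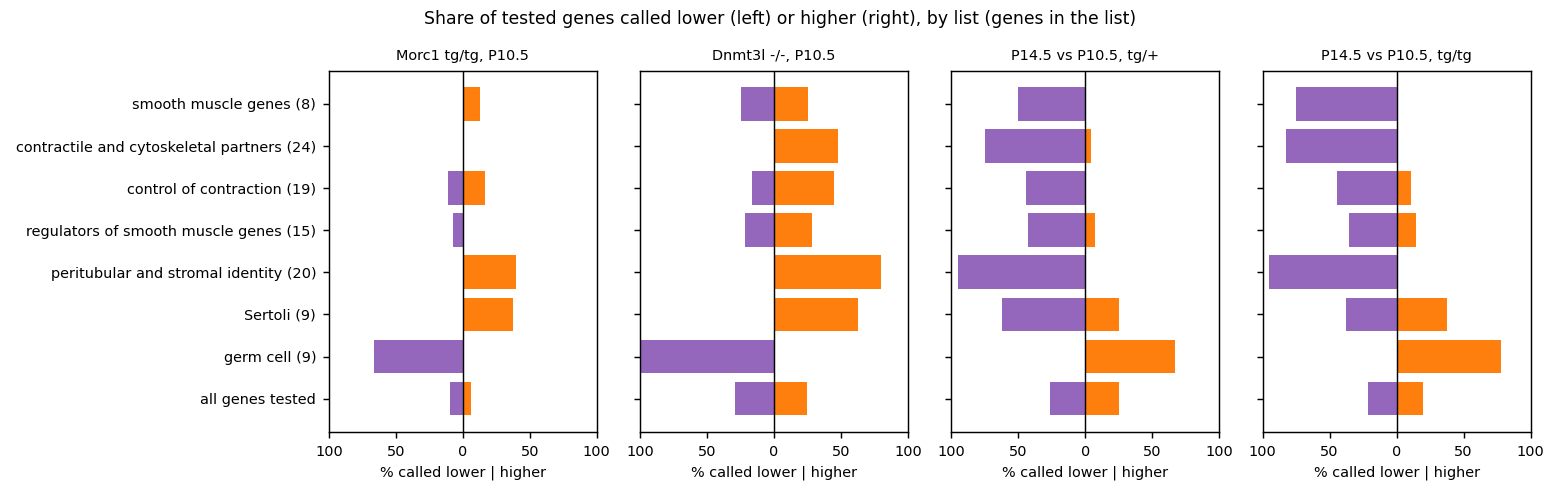
Percent of the tested genes of each list that were called lower (to the left, purple) or higher (to the right, orange) at an edgeR adjusted p under 0.05, in 4 comparisons. The bottom bars give all genes tested. The smooth muscle genes were called in both directions in *Dnmt3l* -/- (2 and 2 of 8) and in the lower direction with age (4 and 6 of 8), while 19 of 20 identity genes were lower with age.

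Markers of other cell types were counted in the same comparisons. Over all genes, 15.3% were called in *Morc1* tg/tg at P10.5, 34.8% at P14.5 and 53.9% in *Dnmt3l* -/-. With age, 51.4% were called in *Morc1* tg/+ and 41% in *Morc1* tg/tg. A count near these shares is not read as a shift of a cell type. Of 9 germ cell markers, 6 fell in *Morc1* tg/tg at P10.5 (*Stra8*, -1.46), 6 at P14.5 (*Sycp3*, -2.13) and 9 in *Dnmt3l* -/- (with *Dppa3*, at 1 to 6 reads in the mutants, tested only through its level in the controls), while with age 6 rose in *Morc1* tg/+ and 7 in *Morc1* tg/tg. Their summed level was 355 to 361 RPKM in P10.5 *Morc1* controls and 223 to 252 RPKM in *Morc1* tg/tg, 662 to 784 and 353 to 407 RPKM at P14.5, and 456 to 581 RPKM in *Dnmt3l* controls and 162 to 193 RPKM in *Dnmt3l* -/-. None of the 9 was at 0 in all libraries of a group. Of 8 tested Sertoli markers, 3 rose in *Morc1* tg/tg at P10.5, 8 at P14.5 (*Amh*, 1.05) and 5 in *Dnmt3l* -/-, where their summed level was 4343 to 4883 RPKM against 2868 to 3952 RPKM in the controls. With age 2 Sertoli markers rose and 5 fell in *Morc1* tg/+, and 3 rose and 3 fell in *Morc1* tg/tg. These counts and sums accompany the comparisons of the 8 genes, and their part in the differences above was not tested.

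Vessel and interstitial markers were counted beside the same shares of all genes called. These were 15.3% in *Morc1* tg/tg at P10.5, 34.8% at P14.5 and 53.9% in *Dnmt3l* -/-, and with age 51.4% in *Morc1* tg/+ and 41% in *Morc1* tg/tg. Of 7 pericyte genes, 2 rose and 1 fell in *Morc1* tg/tg at P10.5 and 4 rose and 1 fell in *Dnmt3l* -/-, and with age 5 fell in *Morc1* tg/+ and 6 in *Morc1* tg/tg. *Pdgfrb* is also an identity gene and *Notch3* also a regulator of the lists above, so both are counted again here. Of 7 endothelial genes, 2 rose in *Morc1* tg/tg at P10.5 and 3 in *Dnmt3l* -/-, and 2 and 4 fell with age. Of 7 Leydig genes, 2 rose in *Morc1* tg/tg at P10.5, 1 at P14.5 and 2 in *Dnmt3l* -/-. With age 1 rose and 2 fell in *Morc1* tg/+, and 4 fell in *Morc1* tg/tg. Of 7 macrophage genes, 4 rose in *Morc1* tg/tg at P10.5 (*Emr1*, 0.84), 2 in *Dnmt3l* -/-, and with age 4 in *Morc1* tg/+ and 1 in *Morc1* tg/tg. None of the pericyte, endothelial and macrophage genes was called in *Morc1* tg/tg at P14.5. In the actin family outside the 8 genes, *Actb* fell (-0.24) and *Actg1* rose (0.22) with age in *Morc1* tg/+, and no member was called between mutants and controls of whole testis.

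Genes of tissue outside the tubules were counted beside the same shares of all genes called. These were 15.3% in *Morc1* tg/tg at P10.5, 34.8% at P14.5, 53.9% in *Dnmt3l* -/- and 1.23% in the *Miwi2* line. With age they were 51.4% in *Morc1* tg/+ and 41% in *Morc1* tg/tg. Of 8 tunica and mesothelium genes, 1 rose in *Morc1* tg/tg at P10.5 (*Dpep1*, 0.40), 1 fell at P14.5 (*Pi16*, -0.62) and 2 rose in *Dnmt3l* -/- (*Dpt*, 0.77, and *Dpep1*, 0.46). With age 3 rose and 1 fell in *Morc1* tg/+, and 1 rose and 1 fell in *Morc1* tg/tg. None of the 6 tested skeletal muscle genes passed in *Morc1* tg/tg at either age, 2 of 7 fell in *Dnmt3l* -/- (*Myh3*, -3.75, and *Actn3*, -0.94), and with age 3 of 6 rose and 1 fell in *Morc1* tg/+ and 1 rose and 2 fell in *Morc1* tg/tg. Among tested epididymis and efferent duct genes, none of 4 passed in *Morc1* tg/tg at either age, and *Cst8* fell with age in both *Morc1* genotypes (-1.09 and -0.93). In *Dnmt3l* -/- 1 of 7 rose and *Lrp2* fell (-2.39). *Crisp1* and *Adam7* were also called lower there but had 0 to 2 reads and were tested only through the controls. Over those controls *Crisp1* ranged from 1 to 1849 reads and *Adam7* from 0 to 24, so the controls were uneven in these genes. The part of this unevenness in the levels of the 8 genes was not tested. Of 3 tested fat genes, none passed in *Morc1* tg/tg at P10.5, *Plin1* rose at P14.5 (0.70), *Lpl* rose in *Dnmt3l* -/- (1.08), and 2 fell with age in either genotype. In the *Miwi2* line *Fabp4*, a fatty acid binding protein of fat cells, was lower in the libraries labelled *Miwi2* -/- (-4.17), at 0.930 to 1.17 against 17.2 to 20.2 RPKM. Another 3 fat genes (*Adipoq*, *Cfd* and *Retn*) were called lower as well, but with under 10 reads in either library labelled *Miwi2* -/- they were tested only because of their level in the others. In the same comparison 2 of 6 epididymis genes were higher (*Crisp1*, 1.91, and *Pax2*, 1.54), and the Leydig gene *Star* was lower (-0.44). No gene of the other lists passed there.

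In sorted germ cells at P10.5 the level relative to whole testis differed widely between the 8 genes, from 0.127% for *Acta2* to 38.8% for *Smtn*. *Acta2* was at 0.441, 0.372, 0.383 and 0.112 RPKM in the 4 *Morc1* tg/+ libraries, which was 3 to 13 reads, against 253.4 and 261.1 RPKM in the 2 whole testis libraries of the same genotype. The sorted level was 0.127% of the whole testis level (SD 0.0569, n = 4), or 787-fold lower. Scaled instead to the reads counted on genes (CPM), it was 0.218%, or 458-fold lower, and the share of each of the 8 genes was larger on that scale, up to 67.2% for *Smtn*. *Myh11*, at 0.209 to 0.393 RPKM, was at 0.803% (SD 0.202), and *Actg2*, at 0 to 0.166 RPKM and 0 to 4 reads, at 1.29%. *Des*, at 0 to 0.265 RPKM and 0 to 13 reads, was at 2.36%. Sorted and whole testis libraries were made with different kits, so these ratios are descriptions, and the SD is that of the sorted libraries.

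The other 4 genes had higher mean ratios. *Cnn1* was at 5.35% (SD 3.78), with 0.028 to 0.536 RPKM in the sorted libraries, and *Tagln* at 8.79% (SD 2.03), with 2.96 to 5.28 RPKM. *Mylk*, at 4.60 to 5.52 RPKM and 649 to 688 reads, was at 12.4% (SD 0.992), and *Smtn*, at 3.33 to 4.40 RPKM, at 38.8% (SD 4.55). The 8 genes therefore did not share 1 ratio, with *Acta2* and *Smtn* at the ends, and do not give 1 measure of muscle-like cells in the sort. Whether germ cells express *Smtn*, *Mylk* or *Tagln* themselves was not tested. The summed level of 9 germ cell markers in the same libraries was 471 to 551 RPKM, that of 8 Sertoli markers 77.1 to 130, of 20 identity genes 93.8 to 97.1 with *Tcf21* at 0, of 7 Leydig markers 3.62 to 4.18 with *Cyp11a1* and *Insl3* at 0 and of 7 endothelial markers 2.74 to 3.66 RPKM. The 7 pericyte genes summed to 80.6 to 110 RPKM, against 85.3 to 94.5 RPKM in the 3 P10.5 whole testis controls. Of this sum *Mcam*, a cell adhesion molecule, made up 78.7 to 109 RPKM in the sorted libraries and 62.3 to 67.9 RPKM in whole testis. The other 6 were lower in every sorted library than in any of those controls, with *Pdgfrb*, a platelet-derived growth factor receptor, at 0.811 to 1.22 against 4.88 to 5.91 RPKM and *Rgs5*, a regulator of G protein signalling, at 0 to 0.0972 against 6.62 to 8.36 RPKM.

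The earlier sorts looked different. At E16.5, over the 2 *Morc1* tg/+ and 2 *Morc1* tg/tg libraries, *Des* was at 4, 4.416, 3.739 and 4.532 RPKM and *Actg2* at 4.58, 5.793, 5.246 and 6.653 RPKM. *Actg2* thus overlapped its range in P10.5 whole testis of the *Morc1* line, and *Des* lay just below its own. These libraries differ from whole testis in kit, age, tissue and background, so this and the skeletal muscle sums below are descriptions. *Acta2* was at 1.813, 1.762, 1.501 and 2.51 RPKM and *Mylk* at 3.199, 3.359, 3.865 and 3.732 RPKM in the same order. At E18.5 *Des* was at 3.686 and 3.989 RPKM in *Morc1* tg/+ and 2.032 and 3.96 RPKM in *Morc1* tg/tg, and *Actg2* at 7.951 and 0 RPKM and at 5.791 and 3.958 RPKM. At P2.5 *Des* lay between 0.548 and 1.105 RPKM and *Actg2* between 0 and 3.035 RPKM over the 5 libraries. In sorted *Morc1* tg/+ cells, 5 of the 8 genes had a lower mean at P10.5 (n = 4) than at E16.5 (n = 2). They were *Actg2* (5.19 and then 0.0648 RPKM), *Des* (4.21 and 0.122), *Cnn1* (2.79 and 0.295), *Acta2* (1.79 and 0.327) and *Myh11* (1.71 and 0.301). *Tagln* (2.47 and 4.10), *Mylk* (3.28 and 5.20) and *Smtn* (1.93 and 3.93) had a higher one, but the gate changed between P2.5 and P10.5 and the ages were not tested against each other. At E16.5 the 10 skeletal muscle genes summed to 40.5 to 57.8 RPKM in *Morc1* tg/+, against 6.12 to 6.69 RPKM in the P10.5 whole testis *Morc1* controls, and their part in the levels of *Des* and *Actg2* was not tested.

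**Figure D4:**
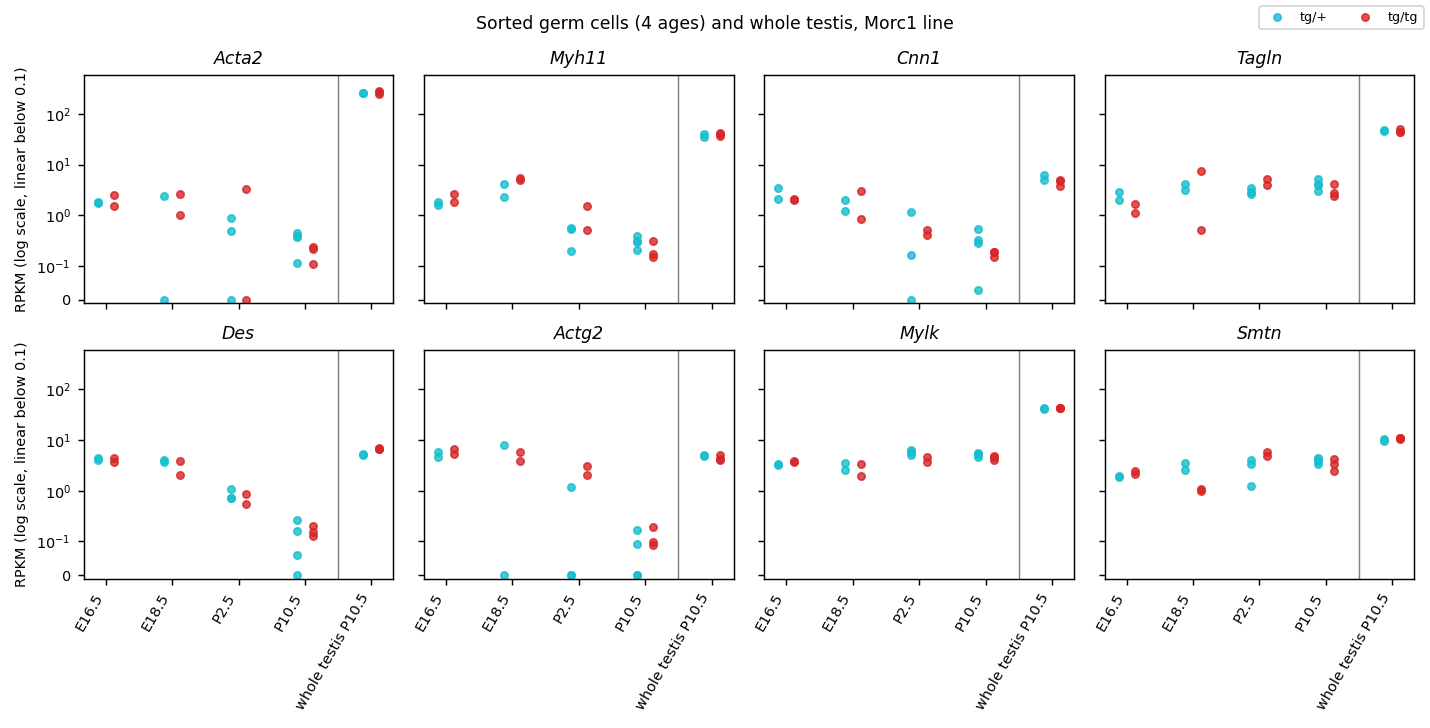
Level of each of the 8 genes in sorted germ cells at 4 ages and, right of the line, in whole testis at P10.5 (RPKM, log axis, linear below 0.1). Each point is 1 library of the *Morc1* line, cyan for tg/+ and red for tg/tg. *Acta2* was at 0.112 to 0.441 RPKM in the sorted *Morc1* tg/+ cells at P10.5, and *Des* and *Actg2* were above 3 RPKM in the E16.5 sorts.

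No smooth muscle gene passed between *Morc1* tg/tg and *Morc1* tg/+ in the sorted cells at any age. At P10.5, 6 of the 8 genes were tested, with *Des* and *Actg2* removed for low counts, and 0 passed in edgeR beside 12.2% of 14019 genes called. All 6 estimates were negative. *Mylk* was at 5.251, 4.601, 5.442 and 5.521 RPKM in *Morc1* tg/+ and 4.055, 4.78 and 4.571 RPKM in *Morc1* tg/tg (log2 fold change -0.30, SE 0.104, edgeR adjusted p = 0.0592). DESeq2 called *Mylk* (1 of 6), limma called none, 2 genes had an unadjusted p under 0.05, and without *Morc1* tg/+ replicate 2 *Mylk* passed in edgeR (-0.34, adjusted p = 0.0328). *Tagln*, at 2.963 to 5.282 against 2.38 to 4.077 RPKM, had a log2 fold change of -0.50 (SE 0.242, edgeR adjusted p = 0.191). Among the lists, 4 of 8 germ cell markers were called, 2 higher and 2 lower (*Stra8*, -1.08, *Sycp3*, -0.67, and *Zbtb16*, 0.41), and in the actin family *Actb* was higher (0.23). Of the somatic markers, 3 of 8 Sertoli markers were lower in sorted *Morc1* tg/tg cells (*Cldn11*, -0.90, *Wt1*, -0.79, and *Clu*, -0.54) and 3 of 17 identity genes were higher (*Pdgfra*, 0.93, *Nid1*, 0.40, and *Nid2*, 0.37). Of the other muscle lists, 4 partners were higher and 3 lower of 20 tested, 2 of 11 genes controlling contraction were lower, and 2 of 13 regulators were higher and 1 lower.

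At E16.5, E18.5 and P2.5, all 8 genes were tested and 0 passed at each age in edgeR, DESeq2 and limma, beside 0.421%, 0.0416% and 0.0486% of all genes called by edgeR. Genes with an unadjusted p under 0.05 numbered 0, 1 and 0. The estimates ranged from -0.95 to 0.31 at E16.5, from -1.45 to 0.86 at E18.5 and from -0.49 to 2.54 at P2.5, where several libraries held no read of *Acta2*, *Actg2* or *Cnn1*, and estimates there turned on 1 library. At P2.5 *Acta2* had a log2 fold change of 1.84, which became -5.93 without *Morc1* tg/tg replicate 1, since the other *Morc1* tg/tg library held no read, and 2.89 without *Morc1* tg/tg replicate 2. *Actg2* went from 2.54 to 7.69 without *Morc1* tg/+ replicate 2, the single *Morc1* tg/+ library with a read of it. At E18.5 the fitted values ranged from -0.42 to 7.35 for *Acta2* and from -0.51 to 8.28 for *Actg2* with 1 library left out. Fitted values against libraries without a read are no measure of size, and none of these was called.

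Across the 27 whole testis libraries the 8 genes varied together. Pearson's r between pairs of the 8, on log2(RPKM + 1), had a median of 0.69 over the 28 pairs, from 0.15 (*Actg2* and *Mylk*) to 0.93 (*Cnn1* and *Actg2*). After each library was centred on its group mean, over the 24 libraries in groups of more than 1, all 28 were positive, with a median of 0.585 (0.26 to 0.79). These are descriptions: libraries share line, age, genotype and depth.

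Outside the 8, the genes whose pattern was most like their mean were ranked by r over the 27 libraries among 12549 genes with a mean of at least 1 RPKM. Elastin, *Eln*, came highest (r = 0.949, centred 0.733), followed by the tropomyosin *Tpm2* (0.948, centred 0.9), the calcium-binding calsequestrin *Casq2* (0.947, centred 0.808) and *Tgfb1i1*, the focal adhesion protein Hic-5 (0.946, centred 0.669). The next were *Ltbp2*, a matrix protein that binds latent TGF-beta (0.942, centred 0.79), *Ptgis*, prostacyclin synthase (0.936, centred 0.585), the tetraspanin *Tspan2* (0.931, centred 0.579) and *Tmem204*, a membrane protein (0.923, centred 0.719). The order among these 8 was not settled, as their values lay close: with a pseudocount of 0.1 *Ltbp2* came first (0.95), and without the preliminary libraries *Casq2* did (0.953). The ranking was different for the centred values, where group differences are removed: *Pygm*, the muscle glycogen phosphorylase (0.927), *Cp*, ceruloplasmin (0.919), *Itih2*, an inter-alpha-trypsin inhibitor chain (0.915), and *H6pd*, hexose-6-phosphate dehydrogenase (0.911), came before *Tpm2*. These 4, picked after their values were seen, had an r of 0.07 to 0.717 before centring, and *Tpm2* was the single gene among the first 8 of both rankings. Within the set, *Acta2* had the highest r with the mean to which it contributes (0.964, centred 0.891). The lowest was *Mylk* before centring (0.731, centred 0.805), and *Des* after it (0.796, centred 0.724).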

How the data were processed

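RNA-Seq libraries of whole testis (27, TruSeq v2) and of sorted germ cells (20, Ovation FFPE kit with rRNA depletion) were used. The authors trimmed reads to 50 bases, removed ribosomal reads, kept unique matches to mm9 with up to 2 mismatches and counted reads on genes with HTSeq. Per the labels and file contents, they deposited raw counts per gene, without normalization, and beside each the RPKM, the count divided by exon length and by mapped reads. Bowtie, HTSeq and mm9 are named in the submitters' processing notes, with versions not given in the sources used here. The small RNA, bisulfite, chromatin and accessibility samples were not used here.

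Here edgeR 4.0.16 in R 4.3.3 was run on the deposited counts of all genes (TMM, filterByExpr, quasi-likelihood test), p-values were adjusted by Benjamini-Hochberg across the genes of a comparison, and calls were made at adjusted p under 0.05. Standard errors were derived from the same test, as the absolute log2 fold change divided by the square root of its F statistic. Mutants were compared with controls of the same line and age (the preliminary pair entered, with its batch as a term, in the comparison of *Morc1* tg/+ with +/+), P14.5 with P10.5 within a genotype, and effects between ages and lines as interactions. The deposited RPKM was used for levels and, as log2(RPKM + 1), for correlations, computed with Python 3.11.15, pandas 2.3.3 and numpy 2.4.6. Alternatives were DESeq2 1.42.0, RLE factors, no filter, limma 3.58.1 (trend) on log2(RPKM + 1), the replicate number as a block, all whole testis libraries in 1 fit, other control sets and each library left out. The steps were tested on simulated counts.

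Groups and replicate numbers were taken from the labels, and by the study's methods each library came from 1 mouse. No 2 libraries of a group were close enough to be copies (lowest chi-square per gene 4.52). Replicate numbers were not treated as pairs, although the correlations of same-numbered libraries cannot exclude pairing. The 8 genes and the lists (contractile partners, control of contraction, regulators, peritubular and stromal identity, actin family, pericyte, endothelial, Sertoli, Leydig, macrophage, germ cell, skeletal muscle, epididymis and efferent duct, fat, tunica and mesothelium) were chosen with earlier results of these data known. Most genes outside the 8 were named by a rule: the targeted genes, up to 3 called genes per list and comparison with the largest log2 fold change, and the 8 genes most correlated with the mean of the set. Outside this rule are genes shown for a level or a marker sum, such as *Rgs5* and *Tcf21*. The same holds for *Pygm*, *Cp*, *Itih2* and *H6pd* of the centred ranking, picked after their values were seen. Of the list genes, *Foxf1*, *Rhox5* and *Adgre1* did not match a symbol, and *Adgre1* is listed under its older symbol *Emr1*. *Notch3*, *Pdgfrb* and *Acta1* each stand in 2 lists, so the counts by list are not separate for them.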

Additional observations from a re-analysis of the deposited data

How the results depend on the processing

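Of 110 tested values of the 8 genes, 15 were called. Over 1374 values from alternatives (729 of them with 1 library left out), 1263 kept direction and side of the threshold, 10 lost the call, 25 gained it and 76 changed sign, 0 of which belonged to a called value. The causes were not tested.

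The number of the 8 genes called at P10.5 in *Morc1* tg/tg was 2 by DESeq2 and with no filter on low counts, and 1 to 2 with a library left out. At P14.5 it was 1 by DESeq2 and 0 to 1 with a library left out. In the comparison of the *Morc1* and *Dnmt3l* effects it was 1 with all whole testis libraries in 1 fit (*Mylk*, adjusted p = 0.0341) and 0 to 2 with a library left out, and between the ages 0 to 1. In sorted P10.5 cells it was 1 by DESeq2 (*Mylk*, adjusted p = 0.0486) and 0 to 1 with a library left out. From counts scaled to the reads on genes instead of RPKM, the sorted level was 0.218% of whole testis for *Acta2*, 1.39% for *Myh11*, 2.27% for *Actg2*, 4.09% for *Des*, 9.22% for *Cnn1*, 15.2% for *Tagln*, 21.4% for *Mylk* and 67.2% for *Smtn*.

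The replicate numbers were not treated as pairs: in no comparison with 3 or more pairs were all correlations of same-numbered deviations above 0.1. With so few pairs this cannot exclude pairing. With the replicate number as a block (replicate block), 3 genes were called at P14.5, beside 33.0% of all genes (*Acta2*, -0.25, *Tagln*, -0.43, and *Actg2*, -0.51), 3 in the *Miwi2* line, beside 28.1% (*Acta2*, 0.15, *Myh11*, 0.20, and *Actg2*, 0.17), and *Tagln* also fell with age in *Morc1* tg/+ (-0.37, edgeR adjusted p = 0.00536).

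Signs that turned were all of uncalled log2 fold changes. *Acta2* at P10.5 in *Morc1* tg/tg was 0.058 with tg/+ controls only and -0.11 to 0.058 with a library left out. *Myh11* in *Dnmt3l* -/- was 0.0095 by DESeq2, 0.0073 with RLE factors, 0.033 with all libraries in 1 fit, 0.012 with *Dnmt3l* +/- controls only and -0.072 to 0.033 with a library left out. In the *Miwi2* line *Des* was 0.014 by limma and *Smtn* -0.0029 with no filter, and with a library left out *Des* ranged from -0.028 to 0.011, *Smtn* from -0.013 to 0.035, *Tagln* from -0.21 to 0.02 and *Actg2* from -0.013 to 0.37. Left-out ranges were -0.0087 to 0.12 for *Smtn* at P10.5 in *Morc1* tg/tg, and -0.30 to 0.064 for *Myh11* and -0.21 to 0.036 for *Smtn* at P14.5. With age they were -0.27 to 0.094 for *Cnn1* in *Morc1* tg/+, and -0.34 to 0.07 for *Cnn1* and -0.33 to 0.13 for *Actg2* in *Morc1* tg/tg. In the sorted cells *Des* and *Actg2* rest on 13 reads or fewer per *Morc1* tg/+ library at P10.5.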
